A study of Mus musculus with 2 samples.

Results

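The genes described here are 8 adhesion receptor genes of mouse hematopoietic progenitors that were grown on a surface coated with the adhesion molecule VCAM-1. They are the integrin genes *Itga4*, *Itgb1*, *Itgb7*, *Itga6*, *Itgae*, *Itgal* and *Itgb2* and the hyaluronan receptor gene *Cd44*. They were chosen by name and are 8 of the 28692 genes in the count matrices. The cells came from the livers of wild type CD1 embryos at E13.5, were depleted of TER-119+ erythroid cells and sorted as Sca-1+ cKit+ hematopoietic stem and progenitor cells (HSPCs). For culture they were plated at 1000 cells a well on 10 µg/mL of the Notch ligand DL4 together with 2.32 µg/mL of VCAM-1. The authors made 2 droplet single-cell libraries, FL001 and FL002, which carry the same labels. Cells taken after sorting and at later days of culture were pooled, and which days each library holds is not stated. Cells captured straight after sorting had not met the coating and every culture had both ligands. Since the day of a cell is not given, a gate may hold both kinds, and no value below compares cells with and without either ligand.

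Integrins are pairs of an alpha and a beta chain that hold a cell to its surroundings and to other cells. The alpha4 chain, encoded by *Itga4*, pairs with the beta1 chain (*Itgb1*) to make the main receptor for VCAM-1 and fibronectin, or with the beta7 chain (*Itgb7*) to make a receptor for MAdCAM-1 that also binds VCAM-1. The beta7 chain also pairs with alphaE (*Itgae*, CD103), which binds E-cadherin, the alpha6 chain (*Itga6*) makes laminin receptors, and alphaL with beta2 (*Itgal*, *Itgb2*) makes LFA-1, which binds ICAMs. CD44 is high on early thymic progenitors and is lost as they commit to the T lineage, which is why CD44 and CD25 (*Il2ra*) are used to stage them.

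A RefSeq promoter window of mouse build GRCm38.p6 was at hand for 4 of the 8 genes. The 250 bases before the start are shown for *Itga4* and for both of its beta partners, whose levels moved differently, and for *Cd44*, the gene with the largest fall. Each is given 5′ to 3′ on the strand of the gene, and capitals mark matches on either strand to TGTGGT (the core bound by RUNX factors), to AGATAA (bound by GATA factors), to CTTCCT (bound by ETS factors such as PU.1) or to CAGCTG (an E box). The windows are chr2:79255176-79255425 on the plus strand for *Itga4*, chr8:128685404-128685653 on the plus strand for *Itgb1*, chr15:102231936-102232185 on the minus strand for *Itgb7* and chr2:102901666-102901915 on the minus strand for *Cd44*.
Itga4: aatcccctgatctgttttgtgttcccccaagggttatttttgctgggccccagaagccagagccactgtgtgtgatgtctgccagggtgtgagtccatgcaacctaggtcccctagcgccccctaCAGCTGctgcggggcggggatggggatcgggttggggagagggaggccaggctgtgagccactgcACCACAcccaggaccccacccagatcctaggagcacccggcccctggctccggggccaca
Itgb1: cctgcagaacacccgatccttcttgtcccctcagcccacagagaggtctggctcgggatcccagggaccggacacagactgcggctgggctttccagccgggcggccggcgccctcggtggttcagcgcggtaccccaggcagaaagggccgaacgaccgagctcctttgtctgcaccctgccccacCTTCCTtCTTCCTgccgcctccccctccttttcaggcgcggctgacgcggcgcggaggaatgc
Itgb7: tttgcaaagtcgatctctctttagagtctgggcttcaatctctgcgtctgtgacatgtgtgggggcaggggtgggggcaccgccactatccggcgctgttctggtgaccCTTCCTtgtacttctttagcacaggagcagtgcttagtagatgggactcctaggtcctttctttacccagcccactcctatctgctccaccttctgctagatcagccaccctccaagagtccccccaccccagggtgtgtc
Cd44: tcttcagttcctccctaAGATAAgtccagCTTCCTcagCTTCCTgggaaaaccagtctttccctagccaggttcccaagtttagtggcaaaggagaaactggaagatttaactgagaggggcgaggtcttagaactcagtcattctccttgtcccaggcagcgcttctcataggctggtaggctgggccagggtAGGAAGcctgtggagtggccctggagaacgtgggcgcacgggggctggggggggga
The *Itga4* window held a RUNX match, as ACCACA on the other strand 60 to 55 bases before the start, and an E box match 125 to 120 bases before it. *Itgb1* held 2 ETS matches between 63 and 51 bases before the start, *Itgb7* held 1 at 141 to 136 bases, and *Cd44* held 3 ETS matches and 1 GATA match. Of 27025 promoter windows of the same 250 bases, 29.2% held an ETS match, 14.2% a RUNX match, 12.8% an E box match and 10.3% a GATA match, so each of these is common and is given only as a description.

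A barcode counted as a cell from 1500 unique molecular identifiers (UMIs, 1 for each captured RNA molecule) and 500 genes upward, unless over 10% of its UMIs were mitochondrial. This left 1788 cells in FL001 with a median of 7722 UMIs and 4100 cells in FL002 with a median of 4752.5, and 10 barcodes were kept in both libraries. Cells were gated on UMIs of stage genes that are not among the 8. The progenitor gate needed at least 2 UMIs of *Lmo2* and *Mef2c* together with at most 1 of *Cd3g*, and held 428 cells in FL001 and 724 in FL002. The early gate needed at most 2 UMIs of *Cd3g* and at most 1 of *Lmo2* and *Mef2c* together, and held 381 and 1134 cells. The Cd3g gate needed at least 3 UMIs of *Cd3g* and none of *Il2ra*, with 327 and 873 cells, and the Il2ra gate needed at least 1 UMI of *Il2ra*, with 738 and 1668 cells. The commitment gate needed at least 2 UMIs of *Ptcra*, *Lef1* and *Bcl11b* together, and held 451 and 501 cells, each of which also met another gate. Of these, 275 and 291 met the Il2ra gate, as did 75 and 276 cells of the early gate.

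The gates followed the T-lineage markers and, among the HSPC markers, mainly *Cd34* and *Flt3*. The summed level of 6 T-lineage markers rose from 51.3 and 66.6 CPM (UMIs per 1000000) in the progenitor gate to 1307 and 1305 CPM in the commitment gate, and that of the HSPC markers *Kit*, *Ly6a*, *Cd34* and *Flt3* went from 401 and 390 to 69.9 and 66.7 CPM, in FL001 and FL002. Markers of other lineages were unequal between gates. The 9 granulocyte and monocyte markers summed to 2460 CPM in FL001 and 1622 in FL002 in the progenitor gate, and to 3704 and 1111 in the early gate. The early gate was thus above the progenitor gate in FL001 and below it in FL002. In the commitment gate they summed to 31.1 and 84.9 CPM, with *Ly6c2* at 0 in FL001 and *Csf1r* in FL002. From the progenitor to the commitment gate, the megakaryocyte and erythroid list went from 343 to 788 down to 11.8 to 21.3 CPM, and the B-lineage list from 189 to 257 down to 113 to 125 CPM. The B-lineage list was lower in between, so it rose into the commitment gate. It stood at 53.9 to 72.9 CPM in the early, 52.0 to 65.9 in the Cd3g and 51.1 to 68.4 in the Il2ra gate. The innate lymphoid list went from 77.0 to 101 up to 220 to 228 CPM with *Eomes*, *Tbx21* and *Il1rl1* at 0 in the commitment gate, and the mast cell and basophil list from 23.7 to 42.6 up to 98.8 to 115 CPM with *Ms4a2*, *Prss34* and *Fcer1a* at 0 there. Dendritic and stromal, endothelial and hepatocyte lists stayed at or under 11.8 CPM in every gate. Cells with UMIs of at least 3 different markers of another lineage made up 45.6% and 26.4% of the progenitor gate. They made up 18.4% and 8.55% of the early gate and 2.44% and 1.60% of the commitment gate. Each comparison of gates was therefore repeated without them.

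Levels of the 8 genes are UMIs summed over the cells of a gate, as CPM, with exact Poisson bounds at 95%, and the percentages of cells have exact binomial bounds at 95%. Neither kind of bound covers more than counting error. Because gates share cells, the intervals of 2 gates are not always independent. UMIs were not scaled to gene length, since each stands for 1 molecule counted from its end, so levels are compared between gates and not between genes. Gates were tested with edgeR's quasi-likelihood test on sums per gate and library, with the library as a block. Each cell was placed once, in the latest gate it met. The p-values were adjusted over all genes that passed the filter on low counts. The 7 gate genes were left out only from the counts of calls, which are out of 10580 genes. The labels do not say that the libraries came from separate cultures. With the library as a block, the p-values weigh a change between gates against a spread. That spread holds counting error and how far such changes differed between these 2 libraries, and the fit draws it toward that of other genes. A gene's level difference between the libraries is taken out, and the spread is estimated over all gates together. That spread may be technical. The SE given with a log2 change was derived as the size of the change divided by the square root of the test's F value. It is approximate and can be narrower than counting error where a gate held few UMIs.

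**Figure D1:**
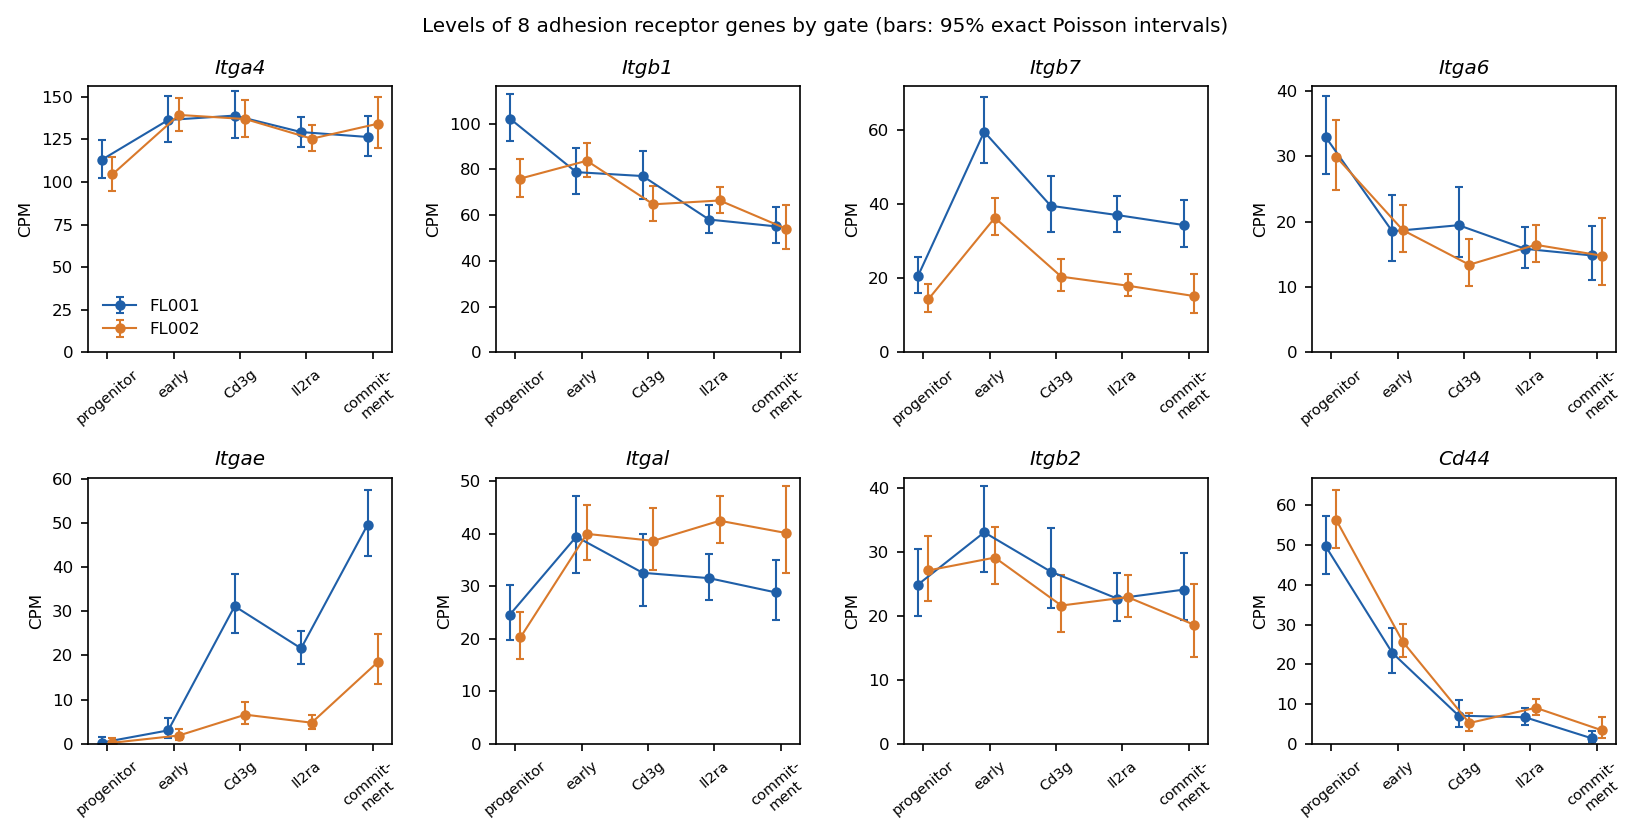
Level of each of the 8 genes in CPM (vertical axis, linear from 0) in the 5 gates (horizontal axis), with FL001 in blue, FL002 in orange and bars for 95% exact Poisson intervals. *Itga4* stayed between 104 and 139 CPM, *Cd44* went from 49.7 and 56.3 CPM in the progenitor gate to 1.40 and 3.38 in the commitment gate, and *Itgae* went the other way.

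*Itga4*, the alpha chain of the VCAM-1 receptors, was present at a similar level in every gate. In FL001 it stood at 113 CPM in the progenitor gate, 136 in the early gate, 139 in the Cd3g gate, 129 in the Il2ra gate and 126 in the commitment gate. In FL002 the same gates had 104, 139, 137, 125 and 134 CPM. The progenitor gate was lowest in both libraries, and the highest gate was 1.23 times the lowest in FL001 and 1.33 times in FL002. Only 1 of 10 pairs of gates had intervals that did not overlap in FL001, and 4 of 10 in FL002. A UMI of *Itga4* was found in 49.7% to 54.6% of cells by gate in FL001 and in 38.1% to 41.9% in FL002. After every cell was thinned to 1500 UMIs these shares were 14.0% to 18.1% and 16.2% to 18.0%, and the gap between the libraries was no longer seen. Barcodes with at most 100 UMIs, taken as empty droplets, carried *Itga4* at 122 and 123 CPM of their own UMIs. This gives the make-up of free RNA and not its amount in a cell. Whether a single UMI came from the cell or from free RNA was not tested.

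*Itgb1*, the beta1 chain, was lower in late gates. In FL001 it went from 102 CPM in the progenitor gate to 78.8 in the early, 77.1 in the Cd3g, 58.1 in the Il2ra and 55.1 in the commitment gate. In FL002 it had 76.0, 83.8, 64.7, 66.4 and 54.1 CPM, with the early gate highest. The libraries had like levels in the commitment gate, where *Itgb1* was lowest in both, but in the progenitor gate their intervals of 92.2 to 113 and 68.0 to 84.8 CPM did not overlap. The progenitor gate was 1.86 times the commitment gate in FL001 (interval 1.56 to 2.22) and 1.41 times in FL002 (1.14 to 1.74).

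*Itgb7*, the beta7 chain, peaked in the early gate. It went in FL001 from 20.5 CPM in the progenitor gate to 59.6 in the early gate and then to 39.6, 37.1 and 34.4 in the Cd3g, Il2ra and commitment gates. In FL002 it went from 14.4 to 36.4 CPM and then to 20.4, 18.0 and 15.2. The rank of the 5 gates was the same in both libraries, and the early gate was 2.91 times the progenitor gate in FL001 (interval 2.21 to 3.86) and 2.53 times in FL002 (1.90 to 3.43). The libraries parted in the last gate, which was 1.68 times the progenitor gate in FL001 (1.25 to 2.26) and 1.06 times in FL002 (0.681 to 1.62), an interval that holds no change. Cells with a UMI of *Itgb7* rose from 13.8% to 31.5% between the progenitor and early gates in FL001 and from 7.32% to 15.1% in FL002, and after thinning from 3.27% to 8.40% and from 1.93% to 5.03%.

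Since both chains were counted in the same cells, their ratio does not depend on how the gates were scaled. *Itgb7* made up 16.7% of the summed *Itgb1* and *Itgb7* UMIs in the progenitor gate of FL001 (interval 13.4% to 20.5%) and 15.9% in FL002 (12.4% to 19.9%). In the early gate it made up 43.1% (38.2% to 48.0%) and 30.3% (26.9% to 33.8%). Later gates stayed at 33.9% to 39.0% in FL001 and at 21.3% to 24.0% in FL002. The libraries had the same share in the progenitor gate within counting error, and FL001 was higher in each later gate with intervals that did not overlap. Without cells that carried 3 different markers of another lineage, the progenitor share was 21.8% in FL001. These are shares of RNA molecules and say nothing of the pairs on the cell surface.

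**Figure D2:**
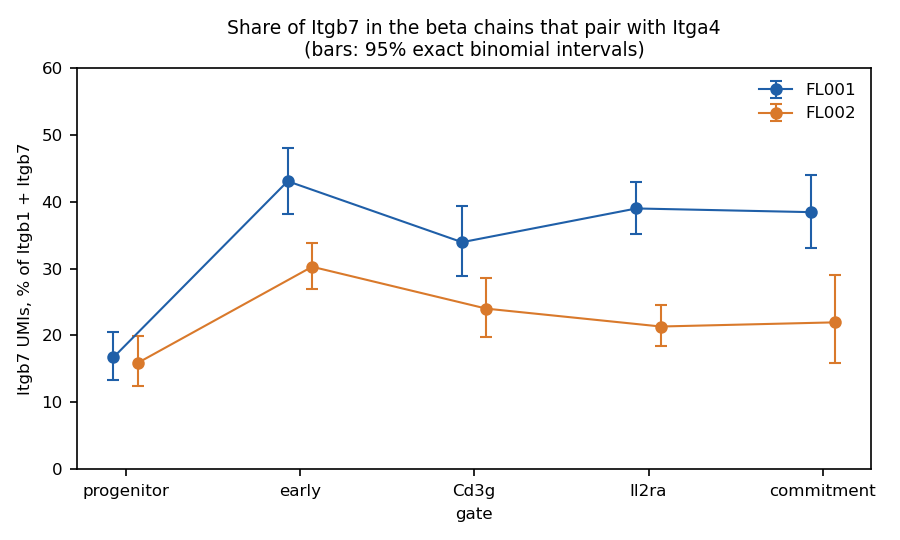
UMIs of *Itgb7* as a percentage of *Itgb1* and *Itgb7* UMIs together (vertical axis) in the 5 gates (horizontal axis), with FL001 in blue, FL002 in orange and bars for 95% exact binomial intervals. Both libraries start at 15.9% to 16.7% and are higher in the early gate, at 43.1% in FL001 and 30.3% in FL002.

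The alpha4 chain was also counted together with each partner in single cells. *Itga4* and *Itgb1* UMIs occurred together in 29.7% of progenitor-gate cells and 18.6% of commitment-gate cells of FL001, and in 13.1% and 10.6% in FL002. *Itga4* with *Itgb7* occurred in 8.18% of progenitor-gate, 18.6% of early-gate and 10.6% of commitment-gate cells of FL001, and in 4.01%, 7.94% and 3.39% in FL002. Such shares depend on depth and on how often each gene was found. Whether the pairs occurred together more often than the shares of each gene give was not tested. After thinning, *Itga4* with either partner was found in 1.87% to 3.41% of the cells of a gate in FL001 and in 1.996% to 3.09% in FL002, too few for the gates to be ranked.

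*Itga6*, the laminin receptor chain, was highest in the progenitor gate in both libraries. It stood in FL001 at 32.9 CPM there, and at 18.5, 19.5, 15.8 and 14.8 in the early, Cd3g, Il2ra and commitment gates. FL002 had 29.9, 18.7, 13.4, 16.5 and 14.8 CPM. The progenitor gate was apart from all 4 others in both libraries and no 2 of the later gates differed beyond their intervals. The progenitor gate was 2.22 times the commitment gate in FL001 (interval 1.60 to 3.13) and 2.02 times in FL002 (1.38 to 3.03). The most UMIs of *Itga6* in a single cell were 12, in the progenitor gate of FL001, and at most 4 in any other gate or in FL002.

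*Itgae*, the alphaE chain of CD103, was nearly absent from the progenitor gate and highest in the commitment gate. The progenitor gate held 1 UMI of it in each library, in 428 and 724 cells, which is 0.270 and 0.235 CPM. FL001 had 3.03 CPM in the early gate, 31.1 in the Cd3g gate, 21.6 in the Il2ra gate and 49.5 in the commitment gate. FL002 had 1.87, 6.59, 4.77 and 18.6 CPM. The rank of the gates was the same in both libraries. FL001 was 2.67 to 4.72 times FL002 in the last 3 gates, with intervals that did not overlap. These gates share cells, and 168 of 327 Cd3g-gate cells of FL001 but 198 of 873 of FL002 also met the commitment gate. Among Cd3g-gate cells that did not, FL001 had 8.78 CPM (interval 4.68 to 15.0) and FL002 4.09 (2.24 to 6.87), which overlap. Among such Il2ra-gate cells the values were 9.62 and 1.84 CPM, with intervals apart. Without commitment-gate cells, the Il2ra gate thus ranked above the Cd3g gate in FL001 only, with overlapping intervals. With so few UMIs in the progenitor gate, the ratio of the commitment to the progenitor gate, 184 in FL001 and 78.9 in FL002, had counting intervals of 32.5 to 7288 and 13.4 to 3188. A UMI of *Itgae* was found in 27.9% of commitment-gate cells of FL001 against 0.234% of progenitor-gate cells, at median depths of 6998 and 8014.5 UMIs, and in 8.18% against 0.138% in FL002, at 4175 and 5649.5 UMIs. Thinned to 1500 UMIs the commitment-gate shares were 10.9% and 4.59%, and in FL002 0 of 724 progenitor-gate cells kept a UMI, which, at 3 counts of the total, allows a share of cells with a UMI at this depth of up to 0.414%. Empty droplets carried *Itgae* at 12.1 and 4.45 CPM, above the progenitor gate and below the commitment gate.

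Within gates, *Itgae* went with the commitment genes. Among cells of the Cd3g gate it stood at 55.7 CPM where the commitment gate was also met and at 8.78 where it was not in FL001, and at 15.3 and 4.09 in FL002. Among cells of the Il2ra gate it stood at 45.0 and 9.62 CPM in FL001, and at 20.2 and 1.84 in FL002. None of these 4 pairs of intervals overlapped. *Cd44* went the opposite way in each pair, with 2.23 against 11.5 CPM and 3.06 against 5.85 in the Cd3g gate, and 0.918 against 9.62 and 3.74 against 10.1 in the Il2ra gate. Its intervals overlapped in FL002.

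**Figure D3:**
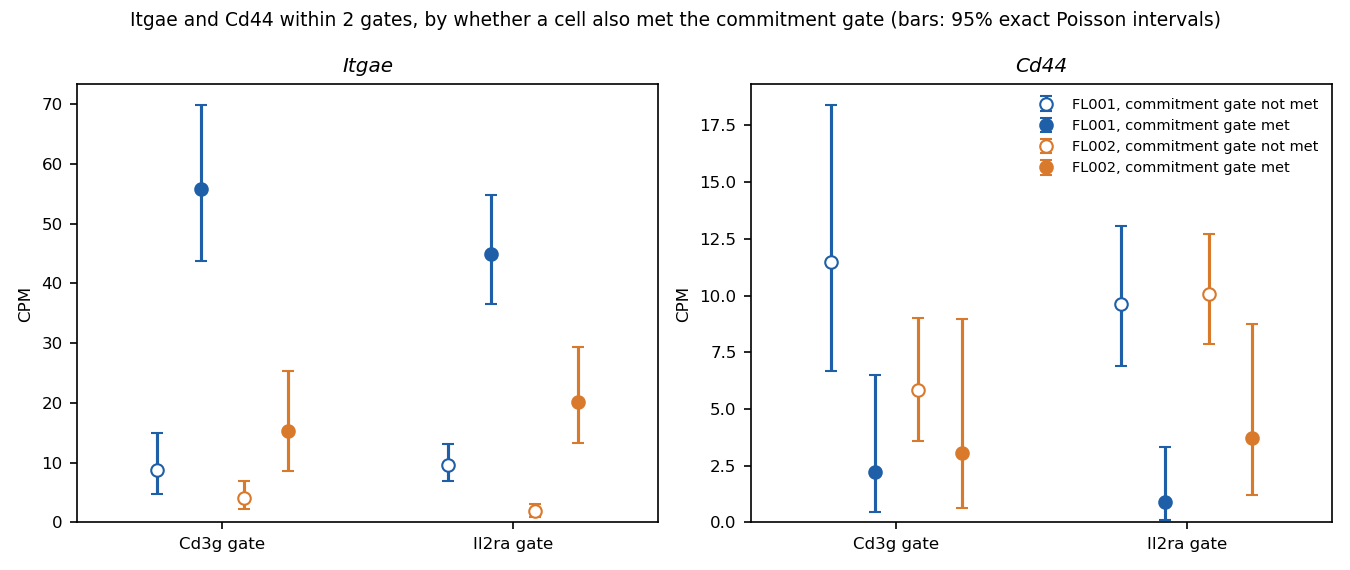
Levels of *Itgae* (left) and *Cd44* (right) in CPM (vertical axes) among cells of the Cd3g and Il2ra gates, with cells that also met the commitment gate as filled points and the others as open points, FL001 in blue, FL002 in orange, and 95% exact Poisson intervals. *Itgae* was higher in the cells that met the commitment gate in all 4 pairs, and *Cd44* was lower.

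*Itgal* and *Itgb2* encode the chains of LFA-1. The highest gate was 1.60 times the lowest for *Itgal* in FL001 and 2.10 times in FL002, and 1.46 and 1.56 times for *Itgb2*. *Itgal* was lowest in the progenitor gate of both libraries, at 24.6 CPM in FL001 and 20.2 in FL002. The early, Cd3g, Il2ra and commitment gates had 39.4, 32.5, 31.5 and 28.8 CPM in FL001 and 39.95, 38.6, 42.5 and 40.1 in FL002. FL002 thus kept its level after the early gate, while in FL001 the commitment gate overlapped the progenitor gate. *Itgb2* stood at 24.8, 33.0, 26.9, 22.7 and 24.1 CPM in FL001 and at 27.1, 29.1, 21.6, 22.9 and 18.6 in FL002. Only 1 of 10 pairs of gates had intervals that did not overlap for *Itgb2* in FL001, and 0 in FL002.

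*Cd44* had the largest fall. In FL001 it went from 49.7 CPM in the progenitor gate to 22.9 in the early gate, 7.08 in the Cd3g gate, 6.68 in the Il2ra gate and 1.40 in the commitment gate. In FL002 it went from 56.3 to 25.7, 5.23, 9.06 and 3.38 CPM. The progenitor gate was above the early gate and the early gate above all later ones in both libraries, beyond their intervals, while the Cd3g and Il2ra gates overlapped. The progenitor gate was 35.5 times the commitment gate in FL001 (interval 14.9 to 111) and 16.7 times in FL002 (8.32 to 39.0), from 5 and 8 UMIs in the commitment gate. Cells with a UMI fell from 30.4% and 25.4% in the progenitor gate to 0.887% and 1.60% in the commitment gate, and after thinning from 7.94% and 8.15% to 0.222% and 0.200%. Empty droplets carried *Cd44* at 17.6 and 16.0 CPM of their own UMIs, above the levels of the Cd3g, Il2ra and commitment gates in both libraries. Whether the few *Cd44* UMIs of these gates came from the cells or from free RNA was not tested.

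In the test of gates, 18 of 40 changes of a gene between gates passed an adjusted p of 0.05, and all 18 had the same direction in FL001 and FL002. The calls were fitted on both libraries together, so this shared direction is no separate support for them. It was not counted over all genes, whose shares of calls are given with each comparison below. The comparison of the last with the first gate spans the others, so the 40 changes are not separate results. Between the progenitor and early gates 4 of the 8 genes rose and 2 fell, where 6.74% of the 10580 genes rose and 5.43% fell. *Itgb7* rose by a log2 change of 1.59 ± 0.17 (SE, adjusted p = 6.06e-08, edgeR), *Itgal* by 0.80 ± 0.17 (adjusted p = 0.0012) and *Itga4* by 0.42 ± 0.09 (adjusted p = 0.0016). *Itgae* also passed (adjusted p = 0.0257), but its fitted size rests on 1 and 0 progenitor UMIs and depends on the fit's prior count. *Cd44* fell by 0.998 ± 0.162 on the log2 scale (adjusted p = 4.48e-05) and *Itga6* fell by 0.61 ± 0.17 (adjusted p = 0.015). Without cells that carried 3 different markers of another lineage *Itga4*, *Itgb7* and *Cd44* still passed and 3 calls were lost, and without all cells with at least 3 UMIs of such markers, which removed 81.8% and 64.0% of the progenitor gate, none of the 8 passed (5 had an unadjusted p under 0.05). In this last fit 258 of 9524 genes rose and 232 fell, against 713 and 574 of 10580 in the main fit. The calls of *Itgal*, *Itga6* and *Itgae* were also lost with DESeq2 and without the library block, and that of *Itgb7* without the block.

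Between the early and Cd3g gates 1 of the 8 rose and 2 fell, where 4.31% of genes rose and 3.81% fell. *Cd44* fell by 1.81 ± 0.26 on the log2 scale (adjusted p = 8.88e-06, edgeR) and *Itgb7* fell by 0.67 ± 0.17 (adjusted p = 0.0115), while *Itgae* rose by 1.79 ± 0.53 (adjusted p = 0.0298). The call of *Itgae* was lost in 4 of 10 alternatives and that of *Itgb7* in 3, DESeq2 and the fit without the library block among them for both, while that of *Cd44* was kept in all 10. Between the Cd3g and Il2ra gates 0 of the 8 passed and 0 had an unadjusted p under 0.05, in edgeR and in DESeq2, where 0.0756% of genes rose and 0.0851% fell. The Cd3g gate left out cells with *Il2ra*, while the Il2ra gate set no rule on *Cd3g*, *Lmo2* or *Mef2c*. The sums of T-lineage markers were 974 and 976 CPM in the Cd3g gate and 905 and 942 in the Il2ra gate. These sums are over all cells of each gate, while the test placed those that also met the commitment gate there.

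Between the Il2ra and commitment gates 1 of the 8 rose and 1 fell, where 5.45% of genes rose and 4.5% fell. *Itgae* rose by 2.65 ± 0.25 on the log2 scale (adjusted p = 4.69e-09, edgeR), and *Cd44* fell by 2.14 ± 0.37 (adjusted p = 0.000128). Both calls were kept in all 9 alternatives. *Itgb1* changed by -0.32 ± 0.13 and did not pass (adjusted p = 0.116), and the other 5 genes changed by -0.20 to 0.00.

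Over the whole range, from the progenitor to the commitment gate, 4 of the 8 genes rose and 3 fell, where 19.5% of genes rose and 18.9% fell. *Itgae* rose (adjusted p = 4.02e-13, edgeR), as did *Itgal* by 0.64 ± 0.18 on the log2 scale (adjusted p = 0.00478), *Itgb7* by 0.61 ± 0.20 (adjusted p = 0.0149) and *Itga4* by 0.32 ± 0.09 (adjusted p = 0.00692). *Cd44* fell by 4.56 ± 0.28 (adjusted p = 3.49e-14), *Itga6* fell by 1.07 ± 0.19 (adjusted p = 2.86e-05) and *Itgb1* fell by 0.68 ± 0.13 (adjusted p = 6.4e-05). *Itgb2* changed by -0.28 ± 0.17 and did not pass (adjusted p = 0.219). The calls of *Itgae*, *Cd44*, *Itga6* and *Itgb1* were kept in all 9 alternatives. Without cells that carried 3 different markers of another lineage the rises of *Itga4*, *Itgal* and *Itgb7* no longer passed and *Itgb2* fell by 0.49, and without those with at least 3 UMIs of such markers *Itgb7* changed by -0.30. With DESeq2 these 3 rises did not pass either. The 2 libraries also differed in size for *Itgal*, with log2 ratios of 0.20 in FL001 and 1.03 in FL002, and for *Itgb7*, with 0.82 and 0.14.

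**Figure D4:**
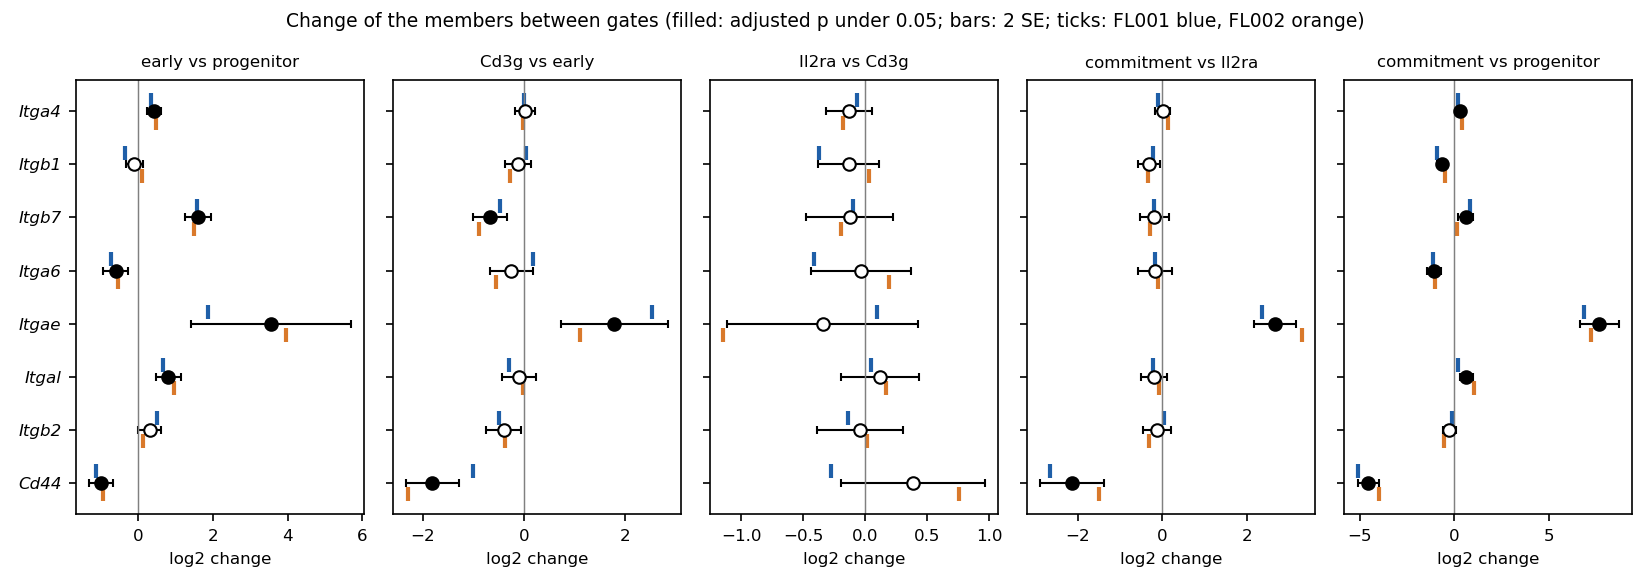
Fitted log2 change of each of the 8 genes (horizontal axes, which differ in range) in the 5 comparisons of gates, with bars of 2 SE, filled points for an adjusted p under 0.05, and ticks for the ratio in FL001 (blue) and FL002 (orange) alone. *Cd44* and *Itgae* pass in 4 of 5 comparisons, *Itgb1* passes only from the progenitor to the commitment gate, and *Itgb2* in none.

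The level of some of the 8 genes in the progenitor gate moved with the cells of other lineages. Leaving out cells with at least 3 different markers of another lineage moved *Itgb7* in that gate from 20.5 to 29.8 CPM in FL001 and from 14.4 to 18.8 in FL002. *Itgal* went from 24.6 to 33.7 and from 20.2 to 23.6, and *Itgb2* from 24.8 to 31.5 and from 27.1 to 30.1. *Cd44* went from 49.7 to 37.5 and from 56.3 to 51.7. For *Itgal*, *Itgb2* and *Cd44* the FL002 value stayed within the counting interval of the full gate. *Itga4* went from 113 to 119 CPM and from 104 to 114, within that interval in both libraries. In the 248 and 266 cells with 3 different granulocyte and monocyte markers, *Itgb7* stood at 20.6 and 9.11 CPM and *Cd44* at 55.2 and 58.9. In the 30 and 21 cells with 3 different innate lymphoid markers, *Itgb7* stood at 151 CPM (interval 102 to 214) and 305 CPM (191 to 461), above every gate of either library. The part of these cells in the changes was not tested further.

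FL001 and FL002 had overlapping intervals for 31 of 40 combinations of gene and gate. FL001 was higher for 8, which were *Itgb7* in the 4 gates after the progenitor gate, *Itgae* in the last 3 and *Itgb1* in the progenitor gate. FL002 was higher for *Itgal* in the Il2ra gate, at 42.5 against 31.5 CPM. The same count was not made over all genes, so it does not set these 8 apart. The labels give no difference between the libraries. Their depths and the overlap of their gates differ, and these and any difference in culture cannot be told apart here.

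Genes whose pattern over the 10 sums was most like that of each of the 8 were ranked among 3688 genes with at least 50 CPM in a sum, by Pearson's r of log2(CPM + 10). The 10 sums share 2 libraries, so r is a description. *Cd44* was nearest to *Bex4* (r = 0.995) and to *Skap2* (r = 0.991), an adaptor of integrin signalling in myeloid cells. *Itgae* was nearest to *Prps2* (r = 0.984) and *Skap1* (r = 0.983), the T-cell paralog of *Skap2*. *Itga4* was nearest to *Arhgap10* (r = 0.979) and *Mms22l* (r = 0.949), *Itgb7* to *Lgals3* (r = 0.931) and *Itm2b* (r = 0.918), and *Itgb1* to *Wdr5* (r = 0.949) and *Hacd1* (r = 0.944). *Itga6* was nearest to *Ttc32* and *Cyth4* (r = 0.954 for both), *Itgal* to *Atp1b3* and *Mif4gd* (r = 0.954 for both), and *Itgb2* to *Dhrs4* (r = 0.941) and *Tmem237* (r = 0.916). Among the 8 themselves, *Itga6* and *Cd44* had r = 0.917 and *Itgb1* and *Cd44* r = 0.825, while *Itga4* had r = -0.238 with *Itgb1* and r = 0.661 with *Itgb7*, its beta partners, and r = 0.799 with *Itgal*.

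Of 32 genes for integrin activation and adaptors, 28 were tested, and from the progenitor to the commitment gate 7 rose and 12 fell, with a median log2 change of -0.24 against -0.01 for all genes. Of all 10580 genes 19.5% rose and 18.9% fell. *Skap1* rose by 7.43 ± 0.32 (adjusted p = 8.75e-18, edgeR), from 0.270 to 109 CPM in FL001 and from 0.471 to 42.2 in FL002. Its fitted size rests on few progenitor UMIs and depends on the fit's prior count. *Skap2* fell by 1.54 ± 0.13, from 86.1 to 26.6 CPM and from 79.1 to 30.4. *Fyb* (the adaptor ADAP, which binds SKAP proteins) rose by 1.69 ± 0.11, *Actn1* (alpha-actinin) by 1.83 ± 0.16, *Tln2* by 1.33 ± 0.47, *Rassf5* (RAPL) by 0.64 ± 0.13 and *Cd47* by 0.27 ± 0.06. *Tln1*, which encodes the talin that opens integrins, fell by 0.82 ± 0.11 and *Fermt3* (kindlin-3), its partner in blood cells, fell by 1.10 ± 0.11. *Rasgrp2*, an exchange factor for Rap1, fell by 1.12 ± 0.10, *Vcl* (vinculin) fell by 1.37 ± 0.31 and the tetraspanin gene *Cd81* fell by 3.01 ± 0.12, from 402 to 36.9 CPM and from 389 to 65.0. Between the Cd3g and Il2ra gates 0 of the 28 passed, where 0.0756% of all 10580 genes rose and 0.0851% fell.

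Of 19 other integrin subunit genes 8 gene identifiers were tested, and 2 rose and 2 fell from the progenitor to the commitment gate, with a median log2 change of 0.06, where 19.5% of all genes rose and 18.9% fell. *Itgb4*, a partner of alpha6, rose from 0.270 to 8.67 CPM in FL001 and from 0.235 to 5.07 in FL002, and *Itgav* by 1.05 ± 0.27. *Itga2b*, the platelet chain also found on early progenitors, fell by 0.91 ± 0.26, but not steadily. It rose from 16.2 CPM in the progenitor gate of both libraries to 32.0 in FL001 and 26.9 in FL002 in the early gate. In the Il2ra gate it stood at 34.5 and 25.4 CPM, and in the commitment gate at 9.23 and 8.02. The symbol *Itgam* belongs to 2 identifiers in the files, of which 1 fell by 3.10 ± 0.68 and the other changed by 0.23 ± 0.33, so reads of this myeloid chain may be split. Among 11 ligand genes 5 were tested, and 2 rose and 2 fell, with a median log2 change of 0.0011, beside the same shares of all genes. *Cdh1*, which encodes E-cadherin, the ligand of alphaE and beta7, rose by 6.15 ± 0.19 (adjusted p = 2.87e-21, edgeR), from 2.43 to 203 CPM in FL001 and from 3.06 to 173 in FL002. *Icam2*, a ligand of LFA-1, rose by 0.50 ± 0.14, *Fn1* (fibronectin) fell by 1.43 ± 0.53, and *Spp1* (osteopontin) went from 3.24 and 2.82 CPM to 0 UMIs in both libraries.

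Of 9 other adhesion receptor genes 4 rose and 4 fell from the progenitor to the commitment gate, with a median log2 change of 0.33, where 19.5% of all genes rose and 18.9% fell. *Selplg*, the P-selectin ligand, rose by 1.02 ± 0.09, from 91.2 to 175 CPM in FL001 and from 71.5 to 147 in FL002. *Podxl* rose by 3.22 ± 0.44, *Pecam1* by 0.79 ± 0.18, and *Cd2*, which had 0 UMIs in the progenitor gate of both libraries, reached 6.44 and 5.49 CPM. *Cd34* fell by 4.40 ± 0.13, from 264 to 13.2 CPM and from 262 to 11.8, *Esam* fell by 1.84 ± 0.22, *Cd93* fell by 1.36 ± 0.16 and *Cd164* fell by 0.31 ± 0.12. Of the named genes of these lists, *Itgav*, *Itga2b*, *Icam2* and *Tln2* kept their call in 6 of 9 alternatives and *Cd164* in 4.

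**Figure D5:**
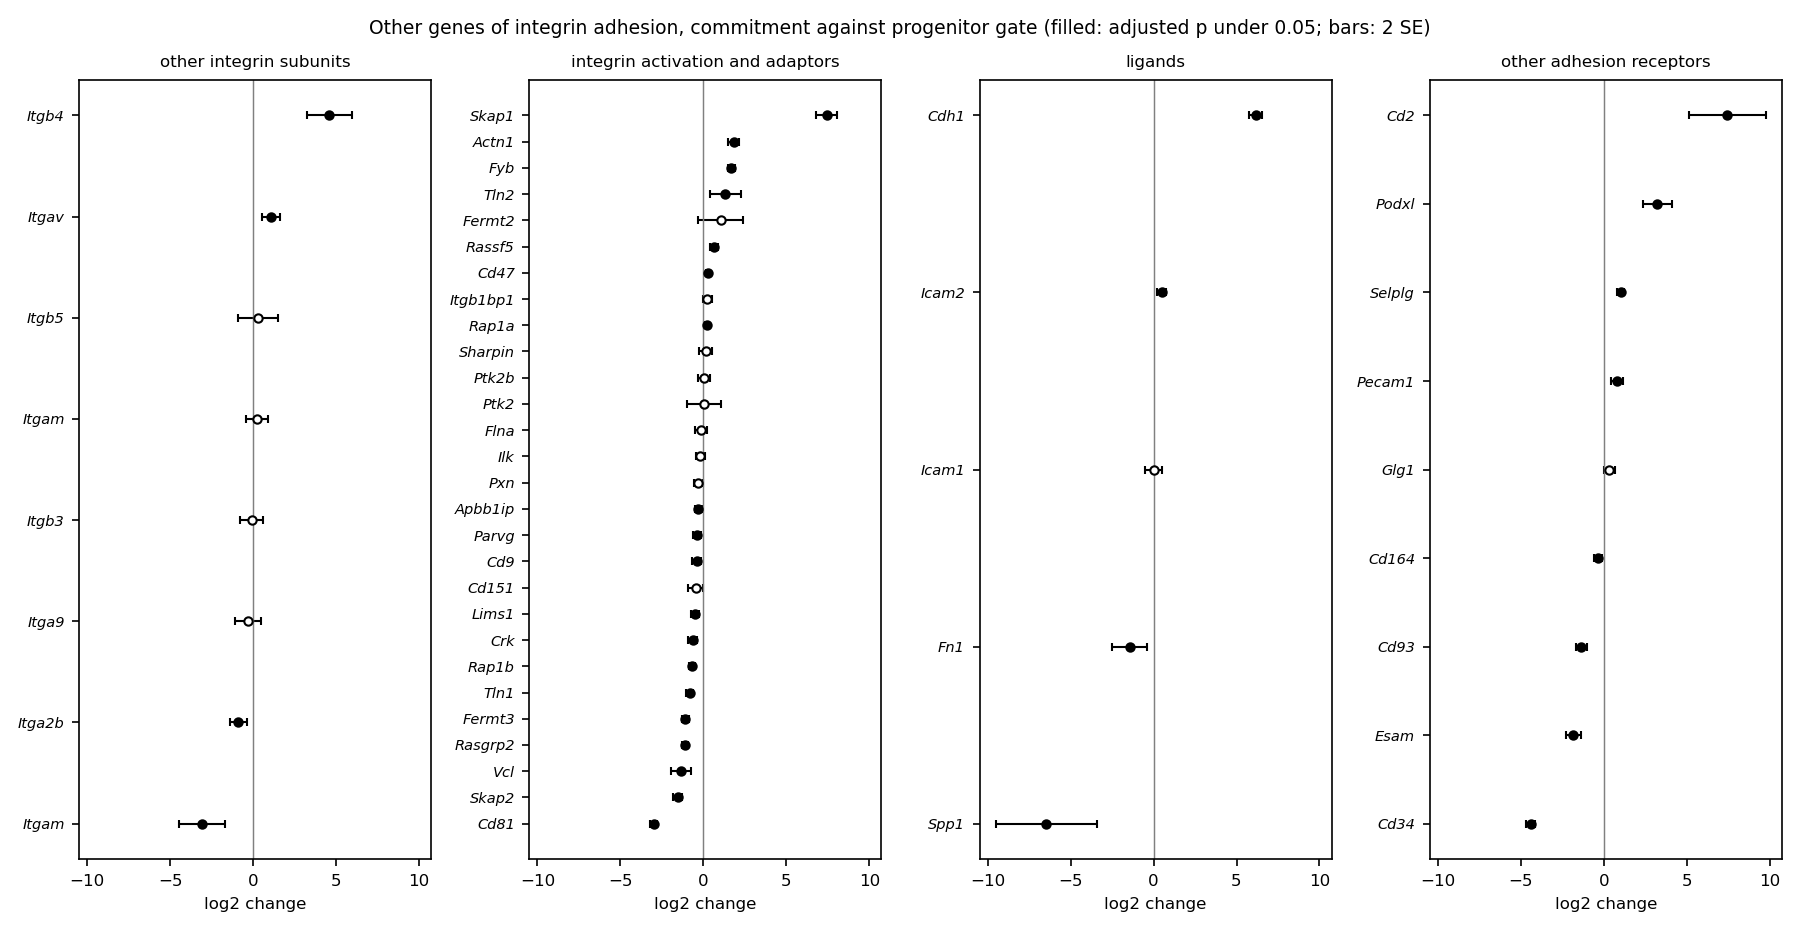
Fitted log2 change from the progenitor to the commitment gate (horizontal axes) of the tested genes of 4 lists, with bars of 2 SE and filled points for an adjusted p under 0.05. *Skap1* and *Cdh1* rose by 7.43 and 6.15, *Cd34* fell by 4.40 and *Cd81* fell by 3.01, while 12 of 28 genes for integrin activation fell and 7 rose, where 18.9% of all genes fell and 19.5% rose.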

How the data were processed

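The authors prepared 2 libraries with 10X Chromium and deposited raw UMI counts, as whole numbers for every gene in every barcode, neither normalized nor filtered for cells. The submitters' processing notes name mm9, but some gene identifiers in the files are newer than that build, so no coordinates were taken from the files; the version of the counting software and the strand setting are not given in the sources used here. Deposited counts totalled 16320118 UMIs in FL001 and 22651783 in FL002. Cells were filtered and gated as described. The 8 genes, the gene lists, the marker lists and the tests were chosen with earlier results of these data known. Of each list, the genes past the threshold with the largest changes from the progenitor to the commitment gate are named, up to 6 each way, with the 2 nearest genes of each of the 8. edgeR 4.0.16 (R 4.3.3, filterByExpr, TMM, library block) was the main test and DESeq2 1.42.0 an alternative. The fit was tried on simulated sums with a fixed spread, for the commitment against the Il2ra gate. It found 99 of 100 4-fold and 66 of 100 2-fold changes, and called 3 unchanged genes among 10360 tested. A change that did not pass is thus not shown to be absent. Scrublet called 6 and 4 cells, 0.336% and 0.0976%, too few for a working caller, so doublets were kept, and an alternative left out the top 5% by score. Promoters are from RefSeq. Of the listed genes, 1 is not reported here.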

Additional observations from a re-analysis of the deposited data

Results flagged for a closer look

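Values stand out in data that no comparison used, the barcodes with at most 100 UMIs. These empty droplets carried all 8 genes. In FL001 and FL002 they held *Itga4* at 122 and 123 CPM, *Itgb1* at 63.9 and 76.5, *Itgal* at 56.2 and 42.7, *Itgb7* at 41.9 and 17.8, *Itgb2* at 27.6 and 16.9, *Cd44* at 17.6 and 16.0, *Itgae* at 12.1 and 4.45, and *Itga6* at 7.72 and 17.8. *Itgal* in empty droplets of FL001 had an interval of 41.9 to 73.9 CPM, above its level in each of the 5 gates there. *Itgb7* was higher in the empty droplets of FL001 than of FL002 beyond counting error, as it was in the gates after the progenitor gate, while the intervals of *Itgae*, on 11 and 5 UMIs, overlapped. How much free RNA adds to the levels in cells was not tested.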

How the results depend on the processing

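Of 18 calls 7 were kept in every alternative, those of *Cd44* in 3 comparisons, *Itgae* in 2, and *Itga6* and *Itgb1* from the progenitor to the commitment gate. How many calls over all genes were kept in every alternative was not counted, so this does not set the 8 genes apart. Counts of genes called, out of 8, moved as follows. From the progenitor to the early gate, 4 higher and 2 lower became 2 and 1 with DESeq2, 1 and 1 without the replicate block, 0 and 0 without cells with 3 UMIs of another lineage and 2 and 1 without those with 3 different markers. Calls over all genes fell as well, from 713 higher and 574 lower. In the same order they were 314 and 148, 241 and 167, 258 and 232, and 523 and 454. The genes tested in the settings of this paragraph numbered 9524 to 12389. From the early to the Cd3g gate, 1 higher became 0 with DESeq2, without the block, without cells with 3 UMIs of another lineage and for cells in exactly 1 gate, and 2 lower became 1 with DESeq2, without the block and for gates on thinned cells. Over all genes, 456 higher became 190, 144, 313 and 388 in those settings, in order. The 403 lower became 157, 130 and, on thinned cells, 974. From the progenitor to the commitment gate, 4 higher became 1 with DESeq2, 1 without either set of cells with other markers, and 2 for gates on thinned cells. Over all genes, 2065 higher became 1190 with DESeq2 and 1374 on thinned cells. Without cells with other markers it became 1173 (3 UMIs) and 1803 (3 different markers). Without cells with 3 UMIs of another lineage *Itgb7* changed by -0.30 there, and its share of beta chain UMIs moved to 23.5% (progenitor gate, FL001; 21.8% for 3 different markers), 25.5% (early gate, FL002) and 19.0% (Cd3g gate, FL002). Of 384 refitted changes, 15 had the other sign, 14 of them called in neither fit. Of 80 ratios in a single library, which have no test, 11 had the other sign, none of them for a called change. Since the calls were fitted on both libraries, the last point is no separate support. No cell met the commitment gate alone, so that alternative gave no value for it. The alternatives with 3 different markers were chosen after the data were seen, the cause of these moves was not tested, and 2 libraries limit every call.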

Other observations

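*Trdc*, which encodes the constant region of the T-cell receptor delta chain, splits the gates further; this split was chosen after values had been seen. In the Cd3g gate of FL001, *Itgae* stood at 49.9 CPM (interval 36.8 to 66.2) in the 119 cells with a *Trdc* UMI and at 21.4 CPM (15.3 to 29.2) in the 208 without. In FL002 the 263 cells with a *Trdc* UMI had 7.46 CPM and the 610 without had 6.26. In the commitment gate the values with and without were 48.4 and 50.7 CPM in FL001 and 18.7 and 18.5 in FL002. In the Il2ra gate they were 22.1 and 21.1 CPM in FL001 and 6.14 and 3.97 in FL002. The difference in FL001 thus went beyond counting error in the Cd3g gate. In the Il2ra and commitment gates of both libraries and in the Cd3g gate of FL002 the intervals overlapped.

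*Cd44* in the Il2ra gate was lower in cells with a *Trdc* UMI in both libraries, at 3.803 against 9.02 CPM in FL001 and 4.85 against 11.5 in FL002, and the intervals overlapped in FL001 only.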
